A study of Mus musculus with 6 samples.

Results

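The 8 genes described here encode the MHC class I molecule, the machinery that loads it with peptide, and a regulator of its transcription. They are H2-K1, H2-D1, B2m, Tap1, Tap2, Tapbp, Erap1 and Nlrc5. They were chosen by name, and all 8 were found among the 20522 gene symbols of the deposited table, where the TPM of their 10 transcripts was summed per gene. All 8 averaged 1 TPM or more over the libraries and so were tested. TPM is a length-scaled share of the reads that sums to 1000000 in each library.

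The study profiled ear epidermis of female C57BL6/N mice aged 8 weeks by RNA sequencing, in 6 libraries. ETA sheets (3 libraries) are upper epidermal layers peeled with exfoliative toxin A (ETA), a bacterial enzyme that cuts the adhesion protein desmoglein 1, and hold the granular cells SG1 and SG2 per the labels. Epidermal sheets (3 libraries) are whole epidermis released with dispase. Each group had its own solution, so an effect of the layer and one of the solution cannot be told apart. Whether a group's sheets are from different mice is not stated, and the p-values then cover just the spread of these samples, possibly a technical one. In 2 of the 6 libraries the header of the column gave the other sheet type than the title that shares its library number. Titles were followed here. Under the headers' grouping 0 genes passed in limma (87 had an unadjusted p under 0.05), and none of the 8 class I genes did at either threshold.

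MHC class I molecules show peptides from the inside of a cell to CD8 T cells. The heavy chain pairs with beta-2 microglobulin in the endoplasmic reticulum. Peptides made by the proteasome are pumped in by the TAP transporter, trimmed by the aminopeptidase ERAP1 and loaded with the help of tapasin. Nearly all nucleated cells express class I molecules, keratinocytes among them, while MHC class II in normal epidermis is known mainly from Langerhans cells.

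Values are shares as deposited unless another scaling is named. The median log2 fold change of the 11683 tested genes was -1.34 (ETA minus epidermal sheet, on the log2(TPM + 1) scale). It was 0.16 after median centring, which sets every library to the same median, and -0.13 after trimmed-mean scaling. Direction therefore depends on the scaling for genes from 0 down to slightly below -1.34. H2-D1 and B2m are among them, and Tap2 (log2 -1.44) turned after median centring. The sums of granular and basal marker genes followed the titles. The sums of spinous keratinocyte markers overlapped between groups, at 33300 to 46300 TPM in ETA sheets and 31300 to 35600 TPM in epidermal sheets. The genes in that sum moved in opposite directions. As deposited Krt1 was lower in every ETA sheet, Krtdap and Sbsn were higher in every ETA sheet, and Krt10 was not called. Granular keratinocyte markers summed to 130000 to 154000 TPM in ETA sheets and to 6450 to 8920 TPM in epidermal sheets, and basal markers to 146 to 279 TPM in ETA sheets and to 16900 to 19300 TPM in epidermal sheets. Among the 6464 genes averaging 10 TPM or more, ETA sheet replicate 2 listed 209 at 0, against 12 to 30 in the other 5 libraries. TPM keeps no depth, so no counting interval can be given.

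The mean levels of the class I chains differed between ETA sheets and epidermal sheets by less than the spread of the ETA sheets, whereas the peptide transporter and the trimming enzyme were lower in every ETA sheet library. As deposited, Tap1, Tap2 and Erap1 fell by 2.90-fold, 2.87-fold and 5.04-fold (epidermal over ETA sheet, ratios of mean TPM), and H2-K1, H2-D1, B2m, Tapbp and Nlrc5 were not called by limma. Thus 3 of the 8 were called lower and 0 higher at a Benjamini-Hochberg adjusted p under 0.05, where 63.6% of all tested genes were called lower and 10.1% higher. At an unadjusted p under 0.05, 0 of the 8 were higher. After median centring 5 of the 8 were called higher and 0 lower, against 29.1% and 18.8% of all genes, and trimmed-mean scaling also gave 5 and 0, against 25.5% and 23.7%. The 5 were H2-K1, H2-D1, B2m, Tapbp and Nlrc5 in both scalings. At an unadjusted p under 0.05, 0 of the 8 were lower after median centring and 1 after trimmed-mean scaling. The median log2 fold change of the 8 was -0.11 as deposited, 1.38 after median centring and 1.39 after trimmed-mean scaling.

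**Figure D1:**
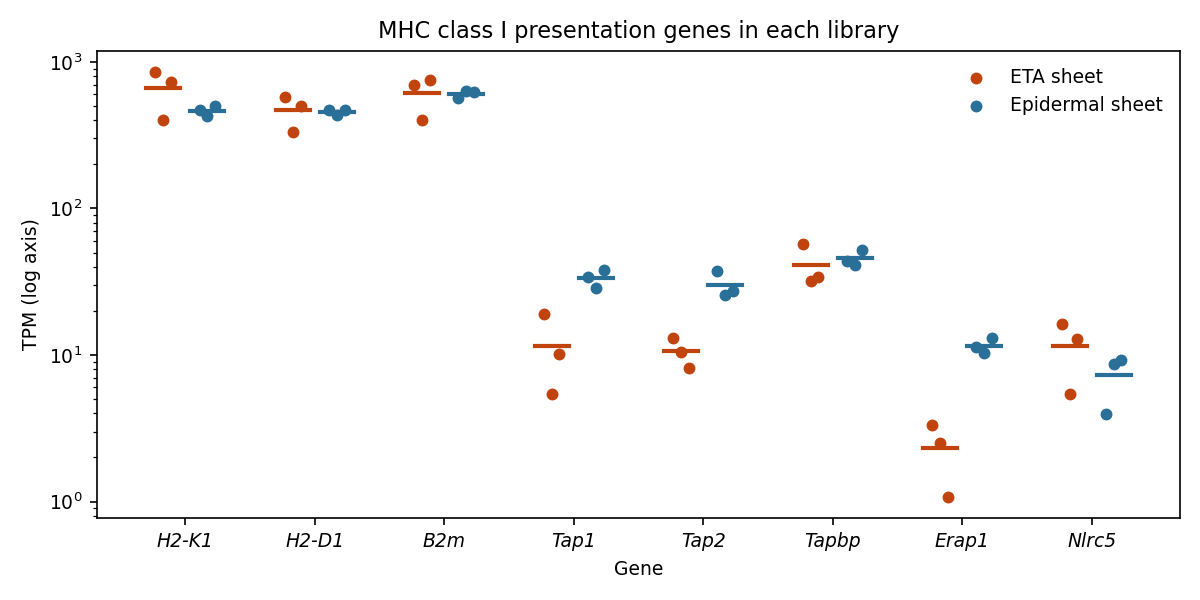
TPM of the 8 genes on a log axis, 1 point per library and a bar at the mean of each group (n = 3 each), with ETA sheets in red to the left of epidermal sheets in blue. The points of the groups do not overlap for Tap1, Tap2 and Erap1, and they overlap for the other 5 genes.

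H2-K1 and H2-D1 encode the classical heavy chains of C57BL/6 mice, K and D, which hold the peptide. H2-K1 had 853, 404 and 734 TPM in ETA sheets, against 471, 424 and 497 TPM in epidermal sheets. ETA sheet replicates 1 and 3 lay above all epidermal sheets and replicate 2 below them. The log2 fold change was 0.45 ± 0.27 (SE, 95% interval -0.18 to 1.07, limma adjusted p = 0.165), and H2-K1 was called higher without ETA sheet replicate 2 (log2 0.77, adjusted p = 0.00465). H2-D1 had 580, 330 and 500 TPM in ETA sheets, against 473, 431 and 471 TPM in epidermal sheets. Its ETA sheets lay on both sides of the epidermal sheets, and the log2 fold change was -0.0038 ± 0.22 (SE, 95% interval -0.52 to 0.51, limma adjusted p = 0.989). B2m encodes beta-2 microglobulin, the light chain. It had 698, 398 and 751 TPM in ETA sheets, against 568, 629 and 621 TPM in epidermal sheets. Here too replicate 2 was the lowest of all libraries, and the log2 fold change was -0.03 ± 0.25 (SE, 95% interval -0.60 to 0.54, limma adjusted p = 0.920). Together the 3 chains held 2130, 1130 and 1980 TPM in ETA sheets, against 1510, 1480 and 1590 TPM in epidermal sheets. ETA sheet replicate 2 was the lowest ETA sheet for 6 of the 8 genes, and replicate 3 for Tap2 and Erap1.

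Tap1 and Tap2 encode the partner subunits of the peptide transporter in the membrane of the endoplasmic reticulum. Tap1 had 19.0, 5.40 and 10.2 TPM in ETA sheets, against 34.0, 28.5 and 37.8 TPM in epidermal sheets. All ETA sheets were below all epidermal sheets, with a log2 fold change of -1.60 ± 0.39 (SE, limma adjusted p = 0.00598). In ETA sheet replicate 2 the main Tap1 transcript was listed at 0, and the value came from the other transcript. Taken from its largest transcript alone, Tap1 was therefore at 0 in that library and lost its call (log2 -2.35, adjusted p = 0.0821). Tap2 had 13.0, 10.5 and 8.18 TPM in ETA sheets, against 37.5, 25.8 and 27.3 TPM in epidermal sheets. The groups did not overlap, and the log2 fold change was -1.44 ± 0.26 (SE, limma adjusted p = 0.00126). After median centring these changes were -0.11 for Tap1 and 0.06 for Tap2 and neither was called, so both moved about as the median gene did.

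Erap1 encodes the aminopeptidase that trims peptides to the length class I molecules hold. It had 3.32, 2.51 and 1.08 TPM in ETA sheets, against 11.4, 10.3 and 13.1 TPM in epidermal sheets. Every ETA sheet was below every epidermal sheet, and the log2 fold change was -1.99 ± 0.34 (SE, limma adjusted p = 0.000955). After median centring it was -0.50 (adjusted p = 0.180) and after trimmed-mean scaling -0.77 (adjusted p = 0.0821). Of the 3 genes not overlapping between groups all were lower in ETA sheets, and 0 were higher, while 66.0% of tested genes were lower in every ETA sheet and 10.9% higher. Tapbp encodes tapasin, which holds the empty heavy chain beside the transporter. It had 57.5, 31.9 and 34.3 TPM in ETA sheets, against 44.0, 41.3 and 52.3 TPM in epidermal sheets. The groups overlapped, and the log2 fold change was -0.19 ± 0.26 (SE, 95% interval -0.79 to 0.40, limma adjusted p = 0.519). Its 2 transcripts shared this sum very unequally between libraries of the same group. The transcript NM_001025313 took 68.6%, 100% and 47.5% of Tapbp TPM in ETA sheets and 25.6%, 100% and 100% in epidermal sheets, so nothing is drawn from the single transcripts.

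Nlrc5 encodes an NLR family protein that acts in the nucleus as a co-activator of class I genes, as CIITA does for class II genes. It had 16.3, 5.43 and 12.8 TPM in ETA sheets, against 3.94, 8.67 and 9.22 TPM in epidermal sheets. ETA sheet replicates 1 and 3 were above all epidermal sheets and replicate 2 lay among them. The log2 fold change was 0.55 ± 0.44 (SE, 95% interval -0.47 to 1.57, limma adjusted p = 0.283). Set among all tested genes, 86.8% had a lower log2 fold change than Nlrc5, 85.9% than H2-K1, 80.9% than H2-D1, 80.7% than B2m and 78.5% than Tapbp. The corresponding shares were 46.5% for Tap2, 40.6% for Tap1 and 28.1% for Erap1.

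**Figure D2:**
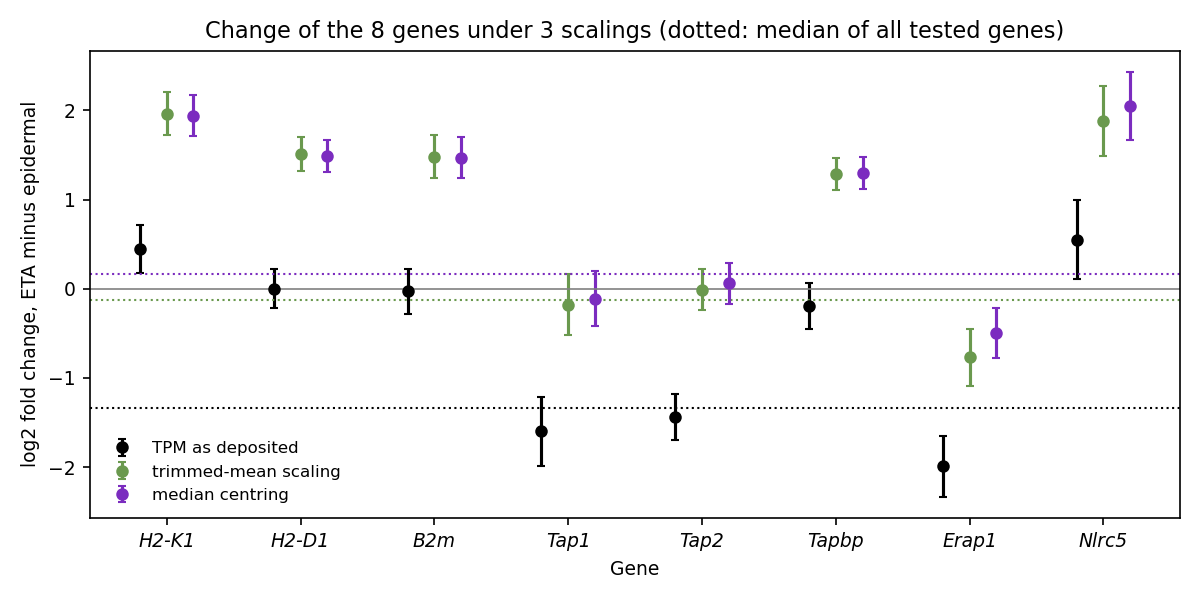
Log2 fold change of each gene (ETA minus epidermal sheet, error bars SE) for TPM as deposited (black), trimmed-mean scaling (green) and median centring (purple), with dotted lines at the median of all tested genes in each. H2-K1, H2-D1, B2m, Tapbp and Nlrc5 lie above the dotted line of their scaling in all 3, with directions that pass from near 0 as deposited to higher in the others, while Tap1, Tap2 and Erap1 lie near or below it.

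TPM is per length, so levels can be ranked between genes. In ETA sheets the order of mean TPM was H2-K1 (663), B2m (616), H2-D1 (470), Tapbp (41.2), Tap1 and Nlrc5 (11.5 each), Tap2 (10.5) and Erap1 (2.30). The ranges of neighbours overlapped among the 3 chains and among Tap1, Nlrc5 and Tap2. In epidermal sheets the order was B2m (606), H2-K1 (464), H2-D1 (459), Tapbp (45.9), Tap1 (33.4), Tap2 (30.2), Erap1 (11.6) and Nlrc5 (7.28), with overlap only between H2-K1 and H2-D1 and between Tap1 and Tap2. Nlrc5 thus stood last in epidermal sheets, below Erap1 in all 3 libraries, and above Erap1 in ETA sheets.

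Ratios taken within a library do not depend on the scaling between libraries. Tap1 and Tap2 together came to 1.50%, 1.40% and 0.928% of the summed TPM of H2-K1, H2-D1 and B2m in ETA sheets, against 4.72%, 3.66% and 4.10% in epidermal sheets. The groups were well apart, the means being 1.28 ± 0.306% for ETA sheets against 4.16 ± 0.536% for epidermal sheets (SD, n = 3 each). Erap1 came to 0.156%, 0.222% and 0.0543% of the chains in ETA sheets, against 0.752%, 0.697% and 0.823% in epidermal sheets. Tapbp overlapped between groups at 2.70%, 2.82% and 1.73% in ETA sheets, against 2.91%, 2.78% and 3.29% in epidermal sheets. Nlrc5 overlapped too, at 0.764%, 0.480% and 0.647% in ETA sheets, against 0.261%, 0.584% and 0.580% in epidermal sheets. These ratios show that the genes changed unequally, and they were formed after the values had been seen, so they carry no test. The chains stood high among all tested genes, as 80.7% to 85.9% had a lower log2 fold change than each of them. Most genes would therefore also be lower relative to the chains, and as deposited 66.0% were lower in every ETA sheet. The share of all genes with such a lower ratio is not given here.

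**Figure D3:**
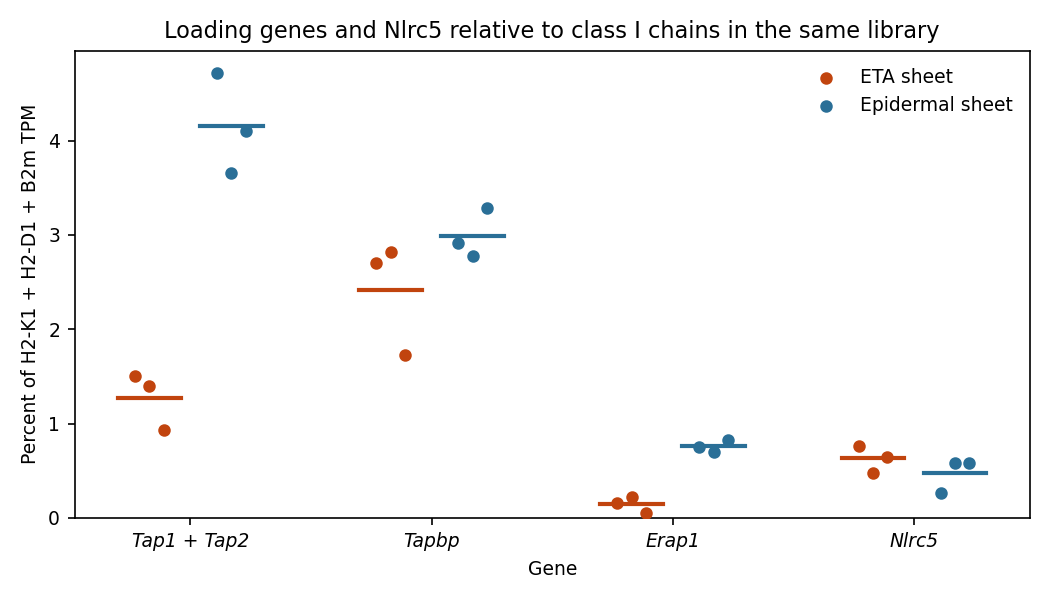
TPM of the loading genes and of Nlrc5 as a percent of the summed TPM of H2-K1, H2-D1 and B2m in the same library, 1 point per library with a bar at the group mean (n = 3 each), ETA sheets in red to the left of epidermal sheets in blue. For Tap1 with Tap2 and for Erap1 every ETA sheet lies below every epidermal sheet, and for Tapbp and Nlrc5 the groups overlap.

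The balance between the heavy chains also differed. H2-K1 over H2-D1 was 1.47, 1.23 and 1.47 in ETA sheets, against 0.995, 0.983 and 1.05 in epidermal sheets, without overlap. Another H2-K1 transcript, which has no symbol in the deposited table and was named by its accession, had 1.6e-06, 55.0 and 69.1 TPM in ETA sheets, against 44.1, 23.8 and 0 TPM in epidermal sheets. Counted in, the ratio was 1.47, 1.39 and 1.61 in ETA sheets, against 1.09, 1.04 and 1.05 in epidermal sheets. The heavy chains are close relatives, and reads were 25 bp long. Of the 25-base runs in the H2-K1 transcript, 32.5% also occur in transcripts of other genes, 21.8% in those of H2-D1. For H2-D1 it was 35.4%, with 16.7% in those of H2-K1 (GENCODE M21 transcripts). How reads were divided between the heavy chains is therefore uncertain, and whether it differs between groups was not tested. B2m and Nlrc5 share 0.0% of their runs with other genes, and Erap1, Tap1, Tap2 and Tapbp 0.7% to 3.2%.

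Class I promoters are known for an upstream element bound by NF-kB and interferon regulatory factors and for a module with a CRE-like box and a CCAAT box, through which the NLRC5 protein acts. The promoters of 3 genes with high levels in both groups and of 2 that fell as deposited are printed here to show these letters. They are RefSeq windows of GRCm38.p6, a build other than the mm9 of the processing notes, with 250 bases before and 50 after the annotated start, and 6 of the 8 genes had one. Capitals mark matches to the NF-kB consensus, to AANNGAAA (the core bound by interferon regulatory factors), to TGACG (CRE half-site) and to CCAAT. Each was searched on both strands, and no base belongs to more than 1 of these motifs.
H2-K1 (chr17:34000298-34000597, minus strand): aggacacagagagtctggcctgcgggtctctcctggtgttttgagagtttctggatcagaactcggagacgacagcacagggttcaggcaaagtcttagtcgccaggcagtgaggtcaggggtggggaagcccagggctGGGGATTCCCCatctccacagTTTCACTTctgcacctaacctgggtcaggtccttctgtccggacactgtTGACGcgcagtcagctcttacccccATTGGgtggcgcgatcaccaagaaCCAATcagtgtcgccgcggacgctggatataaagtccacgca
H2-D1 (chr17:35262844-35263143, plus strand): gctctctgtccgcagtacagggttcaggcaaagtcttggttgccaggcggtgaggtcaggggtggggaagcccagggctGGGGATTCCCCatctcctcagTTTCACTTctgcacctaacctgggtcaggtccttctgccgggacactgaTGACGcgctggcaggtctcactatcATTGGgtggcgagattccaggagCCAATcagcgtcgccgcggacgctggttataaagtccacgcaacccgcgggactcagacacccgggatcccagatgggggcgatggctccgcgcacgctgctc
B2m (chr2:122147437-122147736, plus strand): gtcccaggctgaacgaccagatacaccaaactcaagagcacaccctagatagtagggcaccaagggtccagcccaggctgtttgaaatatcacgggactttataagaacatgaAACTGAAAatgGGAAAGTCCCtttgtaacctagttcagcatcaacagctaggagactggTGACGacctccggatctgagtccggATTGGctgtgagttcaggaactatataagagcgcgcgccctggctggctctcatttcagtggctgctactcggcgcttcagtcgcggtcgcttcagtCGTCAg
Tap1 (chr17:34187306-34187605, plus strand): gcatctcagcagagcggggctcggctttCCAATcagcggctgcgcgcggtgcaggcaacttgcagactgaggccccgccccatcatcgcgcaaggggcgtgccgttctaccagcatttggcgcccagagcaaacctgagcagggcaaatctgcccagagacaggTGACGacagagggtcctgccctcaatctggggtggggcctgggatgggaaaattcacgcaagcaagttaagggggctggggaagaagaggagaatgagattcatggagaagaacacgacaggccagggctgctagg
Erap1 (chr13:74639603-74639902, plus strand): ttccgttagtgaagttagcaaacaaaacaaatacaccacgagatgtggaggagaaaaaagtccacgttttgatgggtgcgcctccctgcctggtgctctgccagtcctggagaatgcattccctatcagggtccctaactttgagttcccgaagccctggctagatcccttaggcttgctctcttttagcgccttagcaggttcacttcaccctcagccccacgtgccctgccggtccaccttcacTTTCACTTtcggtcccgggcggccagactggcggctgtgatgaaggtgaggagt

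H2-K1 and H2-D1 hold all 4 motifs in the same order, NF-kB first, and the window of another annotated H2-K1 start holds them too. B2m holds all 4 with AANNGAAA first, but it did not match the stricter NF-kB motif that this consensus replaced. Of the 32851 promoter windows of the reference 4.51% match the NF-kB consensus, 23.9% AANNGAAA, 20.8% TGACG and 37.4% CCAAT. Tap1 holds TGACG and CCAAT. Erap1 holds AANNGAAA across its start, and Tapbp, whose window is not printed, holds CCAAT. These are matches of letters, not shown to be bound here. A link between the motifs and the changes was not tested, and Tap1 and Erap1 were not called after median centring.

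The counts of the lists that follow stand against the shares of all tested genes, 63.6% lower and 10.1% higher as deposited, 18.8% and 29.1% after median centring, and 23.7% and 25.5% with trimmed-mean scaling. The other class I and class I-like heavy chains include the non-classical Q, T and M genes. Of 30 listed, 23 were in the table by symbol and 13 were tested, of which 5 were called lower and 1 higher as deposited, 1 lower and 6 higher after median centring, and 3 and 3 with trimmed-mean scaling, the last near the shares of all genes. The median log2 fold change of the 13 was -0.47 as deposited, against -1.34 for all genes. Median centring shifts values near 0 too, so genes at low levels were among the 6 called higher after it. H2-Q7, with means of 3.53 TPM in ETA sheets and 2.83 TPM in epidermal sheets, was one, and it was not called with trimmed-mean scaling. H2-T23, which encodes Qa-1, the ligand of CD94/NKG2 receptors, had 88.3, 79.7 and 59.7 TPM in ETA sheets, against 147, 156 and 170 TPM in epidermal sheets. It fell as deposited (log2 -1.06, limma adjusted p = 0.00155), while its sign turned after median centring (log2 0.43, not called) and trimmed-mean scaling (log2 0.44, called higher). H2-Q4 had 32.7, 41.7 and 41.1 TPM in ETA sheets, against 18.5, 16.3 and 26.6 TPM in epidermal sheets, and rose in each of these scalings (log2 0.90, 2.39 and 2.35; adjusted p as deposited 0.00980). H2-M2 was listed at 0 in all ETA sheets, against 5.34, 15.2 and 23.1 TPM in epidermal sheets, and fell in all 3 scalings. Another H2-M2 transcript, also without a symbol, had 1.305, 0 and 0.9552 TPM in ETA sheets, against 11.13, 4.321 and 0 TPM in epidermal sheets. H2-T22 was not called as deposited at 53.3, 36.2 and 37.6 TPM in ETA sheets, against 65.9, 59.0 and 50.7 TPM in epidermal sheets (log2 -0.47, limma adjusted p = 0.0837). Without ETA sheet replicate 1 it passed as lower (log2 -0.64, adjusted p = 0.0159), and after median centring as higher (log2 1.02).

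Chaperones and partners of peptide loading in the endoplasmic reticulum nearly all fell as deposited, with 14 of 15 called lower and 0 higher (0 also at an unadjusted p under 0.05), a median of -1.69 against -1.34 for all genes. After median centring 2 were lower and 3 higher. Pdia3, the disulfide isomerase bridged to tapasin, had 95.5, 57.8 and 65.5 TPM in ETA sheets, against 272, 280 and 325 TPM in epidermal sheets. It fell in all 3 scalings (log2 -2.02 as deposited, limma adjusted p = 0.000105; -0.52 after median centring), as did Ganab, a subunit of glucosidase II (log2 -2.46 and -0.96). Canx, the chaperone calnexin, Tapbpl, a relative of tapasin that edits peptides, and Sec61g, a subunit of the translocon, fell as deposited (log2 -1.82, -1.81 and -1.96) and were not called after median centring. Calr, the chaperone calreticulin, and Hspa5, the chaperone BiP, fell as deposited (log2 -0.93 and -0.70) but passed as higher once centred on the median (log2 0.56 and 0.79) and with trimmed-mean scaling (log2 0.58 and 0.81).

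The immunoproteasome subunits, which replace the constitutive catalytic subunits where interferon acts, and the PA28 activator fell as deposited in 5 of 5 genes, 2 of them also after median centring. Those 2 were the PA28 genes. Psme1 had 71.3, 37.8 and 42.1 TPM in ETA sheets, against 240, 271 and 264 TPM in epidermal sheets. Psme2 had 49.0, 30.1 and 37.4 TPM in ETA sheets, against 230, 265 and 295 TPM in epidermal sheets (log2 -2.75 as deposited and -1.26 after median centring, limma adjusted p as deposited 3.07e-05). Psmb8 had 3.85, 0 and 2.51 TPM in ETA sheets, against 16.8 ± 8.32 TPM in epidermal sheets (SD, n = 3). The catalytic immunosubunits Psmb8, Psmb9 and Psmb10 summed to 0.0382, 0.0232 and 0.0191 of their constitutive counterparts Psmb5, Psmb6 and Psmb7 in ETA sheets, against 0.0684, 0.0368 and 0.0522 in epidermal sheets. The groups overlapped in this ratio at ETA sheet replicate 1. Taken singly, Psmb8 over Psmb5 and Psmb9 over Psmb6 were lower in every ETA sheet, both narrowly. The former was 0.031 at most in ETA sheets against 0.0359 at least in epidermal sheets, and the latter 0.0526 against 0.0544. Psmb10 over Psmb7 overlapped. All 3 constitutive subunits fell as deposited, whereas Psmb7 passed as higher with median centring (log2 0.67) and trimmed-mean scaling (log2 0.68).

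Of 25 transcription factors and interferon signalling genes upstream of class I genes 23 were tested, and 18 were called lower and 0 higher as deposited (5 lower and 6 higher after median centring, 7 and 5 with trimmed-mean scaling). These counts lie near the shares of all genes after median centring, and the median as deposited was -1.21, against -1.34 for all genes. At an unadjusted p under 0.05 1 was higher, Irf1. Irf1, an activator of class I promoters, had 85.9, 73.8 and 26.3 TPM in ETA sheets, against 34.2, 24.9 and 21.0 TPM in epidermal sheets. Replicates 1 and 2 stood far above all epidermal sheets and replicate 3 between them. It was not called as deposited (log2 1.05 ± 0.43 SE, limma adjusted p = 0.0524), but was called higher without ETA sheet replicate 3 (log2 1.57, adjusted p = 0.00268) and after median centring (log2 2.54). The replicate block (adjusted p = 0.0136), a filter of 5 TPM (0.0427), a pseudocount of 5 (0.0479) and names by accession (0.0488) also gave that call, whereas library weights gave log2 0.19 (adjusted p = 0.612). Rfxap, a subunit of the RFX complex that binds class I and class II promoters, fell as deposited and after median centring (log2 -2.23 and -0.74), as did Nfyb of the CCAAT-binding factor (log2 -2.48 and -0.99), the kinase Jak2 (log2 -2.37 and -0.88) and the interferon receptor chain Ifnar2 (log2 -2.97 and -1.47). Rfxank, another RFX subunit, was not called (log2 -1.04, limma adjusted p = 0.0643), but passed as lower once ETA sheet replicate 1 was left out (log2 -1.33), with library weights (log2 -0.84) and with the replicate block (adjusted p = 0.0483). Its sign turned, with no call, after median centring (log2 0.45) and trimmed-mean scaling (log2 0.07). Rfx5, the DNA-binding subunit of that complex, was listed at 0 by symbol in 5 libraries and not tested. An Rfx5 transcript without a symbol had 0.9603, 0 and 0.3888 TPM in ETA sheets, against 4.303e-07, 3.988 and 7.727 TPM in epidermal sheets. Jak1, a kinase of interferon receptors, fell as deposited (log2 -1.33), with the sign turned and no call after median centring (log2 0.17).

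Interferon-stimulated genes summed to 205 to 248 TPM in ETA sheets and to 53.8 to 69.4 TPM in epidermal sheets. Of 32 listed 29 were in the table by symbol and 15 were tested. Mx1, Mx2 and Cxcl11 stood there only as transcripts without a symbol. As deposited 3 of the 15 were called higher and 4 lower. After median centring 9 were higher and 0 lower (0 lower also at an unadjusted p under 0.05). With trimmed-mean scaling 5 were higher and 0 lower. Median centring shifts values near 0 too, so genes at low levels were among the 9. Gbp2, with means of 1.04 TPM in ETA sheets and 1.11 TPM in epidermal sheets, went from log2 -0.05 to 1.44. With trimmed-mean scaling Gbp2 was not called. Most of the difference between the sums came from 1 gene. Irf7, a transcription factor of the interferon response, had 88.8, 155 and 189 TPM in ETA sheets, against 7.58, 6.55 and 8.04 TPM in epidermal sheets (log2 4.05 ± 0.29 SE, limma adjusted p = 2.03e-05). Isg15, a ubiquitin-like protein, had 59.5, 29.6 and 30.1 TPM in ETA sheets, against 12.5, 7.89 and 7.69 TPM in epidermal sheets (log2 1.93 ± 0.33 SE, limma adjusted p = 0.000990). Ifi35 fell as deposited (log2 -2.09) and was not called after median centring (log2 -0.60). Irf7 and Isg15 rose in all 3 scalings.

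MHC class II genes, set beside class I for the cells that carry them, fell in 7 of 8 tested genes as deposited and in 6 after median centring. Cd74, the invariant chain, had 21.3, 11.9 and 20.4 TPM in ETA sheets, against 556, 400 and 505 TPM in epidermal sheets. H2-Aa and H2-Eb1, class II chains, had log2 fold changes of -5.12 and -4.67 as deposited and -3.63 and -3.17 after median centring, and fell in both. Of the ligands of NKG2D, a receptor of natural killer and epidermal T cells, and of checkpoint receptors, 10 of 14 were in the table and 5 were tested, with 3 lower as deposited, and 1 lower and 2 higher after median centring, close to the shares of all genes. H60c, the NKG2D ligand of mouse keratinocytes, had 11.2, 5.51 and 5.84 TPM in ETA sheets, against 56.2, 58.7 and 78.0 TPM in epidermal sheets, and fell also after median centring (log2 -2.99 and -1.49). Cd47, a signal against phagocytosis, fell as deposited (log2 -1.83) and was not called after median centring (log2 -0.34) or trimmed-mean scaling (log2 -0.39). Nectin2, a ligand of DNAM-1 and TIGIT, fell before scaling (log2 -0.73) but passed as higher once centred on the median (log2 0.76), and its call as deposited was lost without ETA sheet replicate 3 (log2 -0.69) or epidermal sheet replicate 2 (log2 -0.67).

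**Figure D4:**
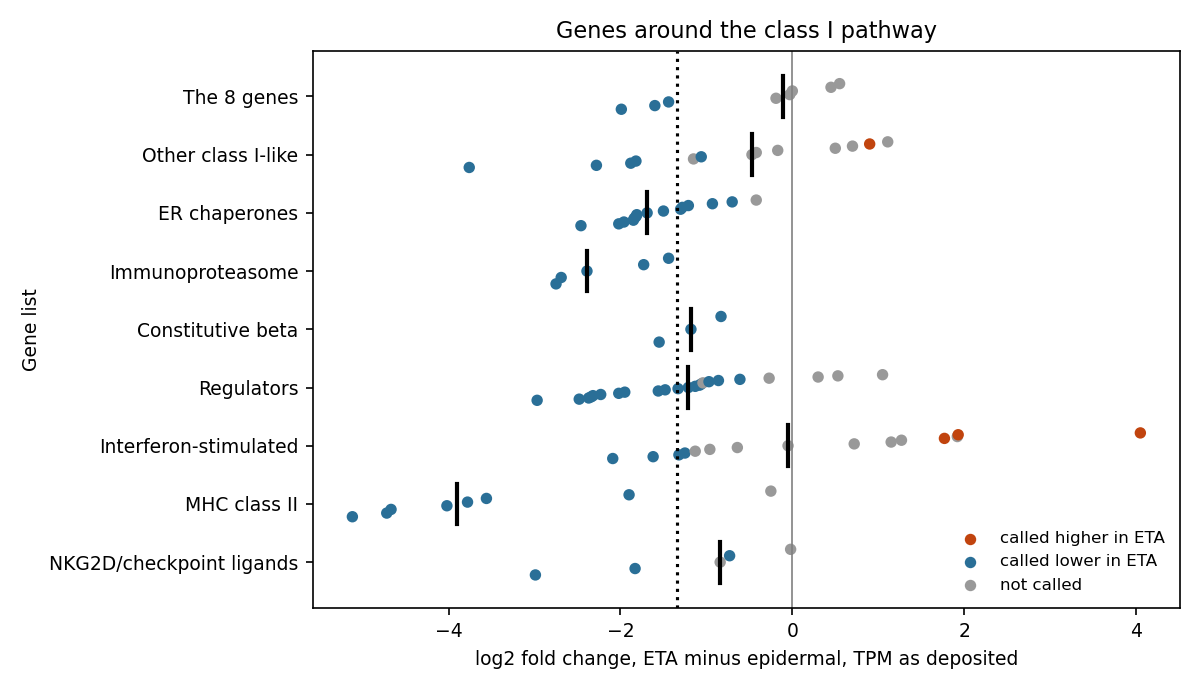
Log2 fold change of each tested gene (ETA minus epidermal sheet, TPM as deposited) by gene list, with a black bar at the list's median and a dotted line at the median of all tested genes, -1.34. Red marks genes called higher in ETA sheets, blue genes called lower and grey genes not called. The 8 class I genes form a group near 0 and a group of 3 near -1.5 to -2, and class II genes lie far to the left.

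Other cell types express class I genes too, and their markers moved with the groups. Langerhans cell markers (8 genes) summed to 10.1 to 30.9 TPM in ETA sheets and to 103 to 111 TPM in epidermal sheets, with Cd207 at 0.535, 2.43 and 1.48 TPM in ETA sheets, against 48.3, 47.3 and 44.1 TPM in epidermal sheets. T cell markers (9 genes in the table) summed to 7.84 to 12.2 TPM in ETA sheets and to 155 to 161 TPM in epidermal sheets, with Cd3g at 3.06, 0 and 1.45 TPM in ETA sheets and Cd8a listed at 0 in every library. Melanocyte markers (7 genes) summed to 1.77 to 2.63 TPM in ETA sheets and to 44.1 to 44.4 TPM in epidermal sheets. Dermal fibroblast markers (6 genes) moved the other way, summing to 56.0 to 66.6 TPM in ETA sheets and to 7.27 to 10.8 TPM in epidermal sheets. In that list 5 of 5 tested genes were called higher, Dcn with 27.1, 37.2 and 30.6 TPM in ETA sheets, against 7.96, 4.53 and 6.48 TPM in epidermal sheets. Endothelial markers (5 genes) summed to 0.673 to 4.94 TPM in ETA sheets and to 0.686 to 2.33 TPM in epidermal sheets, and none was tested. The part of these cells in the class I levels was not tested. In bulk RNA, fewer cells of a type and less RNA per cell cannot be told apart.

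Of 6359 other genes averaging 10 TPM or more, those most like the mean log2(TPM + 1) of the 8 genes over the 6 libraries were Dnajb2 (Pearson r = 0.997), Mkrn1 (0.992), Grn (0.989), Cdyl (0.989) and Pak1 (0.988). That mean was 6.07, 5.18 and 5.59 in ETA sheets, against 6.09, 6.07 and 6.27 in epidermal sheets, so the likeness follows mainly the low values of ETA sheet replicates 2 and 3. After median centring r was 0.990 for Dnajb2 and 0.995 for Mkrn1, but 0.699 for Grn, 0.732 for Cdyl and 0.528 for Pak1.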

How the data were processed

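Total RNA of ear epidermis was sequenced as paired reads of 25 bp from directional libraries, per the labels' protocols. Salmon, Bowtie2 and mm9 stand in the submitters' processing notes, which give neither their versions nor what each was used for. The deposited values are TPM, in 1 table of 37903 transcripts, of which 7951 lack a symbol. Since TPM sums to 1000000 whatever the library, abundant transcripts of one group lower the shares of all others, and depth is unknown. A column was assigned through its library number, found in just 1 sample title. TPM was summed per symbol, and 3.57% to 6.65% of the TPM per library had no symbol.

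Genes averaging 1 TPM or more were tested with limma 3.58.1 (R 4.3.3) on log2(TPM + 1), ETA minus epidermal sheet, with a trended empirical Bayes fit over all 6 libraries and Benjamini-Hochberg adjustment over 11683 genes. Fold changes on this scale are understated for low genes. The code of the fit was also run on simulated data with planted changes, which checks the code and not the results given here. Tables and figures were made in Python 3.11.15 with numpy 2.4.6, pandas 2.3.3 and matplotlib 3.10.9. Promoter windows and the table's accessions are from RefSeq for GRCm38.p6, and shared runs from GENCODE M21.

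The 8 genes and all lists were chosen with earlier results of these data known. All 8 genes are named. From each of the 8 other pathway lists the text names the most abundant tested gene, up to 3 called genes per direction whose higher group averaged 5 TPM or more, and fixed counterparts, 1 of which is not reported here. Cd207, Cd3g, Cd8a and Dcn, the promoters printed, the ratios and the motifs were chosen after values were seen. The NF-kB consensus replaced a stricter motif, which only H2-K1 and H2-D1 matched. Alternatives were pseudocounts of 0.1 and 5, no filter and a filter of 5 TPM, trimmed-mean scaling, median centring, rescaling without the 100 most abundant genes, library weights, a fit with no variance trend, a replicate block, the largest transcript alone, names by accession, groups by header names, and leaving out each library.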

Additional observations from a re-analysis of the deposited data

How the results depend on the processing

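For the 8 class I genes, 116 of 120 log2 fold changes under the 15 alternatives that change neither the scaling nor the groups had the direction and the call given above, or no call in both. The exceptions were H2-K1 called higher with library weights (log2 0.63) and without ETA sheet replicate 2 (log2 0.77), Nlrc5 called higher with library weights (log2 0.77) and Tap1 not called with its largest transcript (log2 -2.35). ETA sheet replicate 3 had a weight of 5.37 there, against 0.370 (replicate 1) and 0.341 (replicate 2). With the largest transcript Hspa5 (log2 -1.10) and Jak2 (-2.22) also lost their calls. The cause was not tested for H2-K1 and Nlrc5.

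Scaling decided most other differences. Median centring shifts all genes of a library alike on the log2 scale. The other scalings act on TPM before the log2, so genes at low levels can move otherwise. Over all genes, 1181 were called higher and 7432 lower as deposited, 2975 and 2773 with trimmed-mean scaling, and 3405 and 2202 (5607 in all) after median centring. Groups by header names gave 0 and 0, and 0 of the 8. Of the 8, 0 were higher and 3 lower as deposited. Trimmed-mean scaling and median centring each gave 5 higher, 0 lower and 5 in all, while library weights, and rescaling without the 100 most abundant genes, each gave 2 higher and 5 in all. With 1 library left out, 1057 to 1171 genes were higher and 6662 to 7532 lower, and of the 8, 0 to 1 were higher and 3 lower, 3 to 4 in all.

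The sign turned after median centring and trimmed-mean scaling, with the log2 values 1.49 and 1.51 for H2-D1, 1.47 and 1.48 for B2m, 1.30 and 1.29 for Tapbp, 0.43 and 0.44 for H2-T23, 1.02 and 1.01 for H2-T22, 0.79 and 0.81 for Hspa5, 0.56 and 0.58 for Calr, 0.67 and 0.68 for Psmb7, 0.32 and 0.33 for Psmb6, 0.17 and 0.16 for Jak1, 0.76 and 0.75 for Nectin2, and 0.45 and 0.07 for Rfxank. For Tap2 (0.06) and Psmb10 (0.05) it turned after median centring and not with trimmed-mean scaling. Rescaling without the 100 most abundant genes turned it for H2-D1 (0.54, called), B2m (0.51), Tapbp (0.34) and H2-T22 (0.06), the last 3 not called.

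Whether the replicate numbers in the titles pair the samples is not stated, and the main fit took the samples as unpaired. Same-numbered libraries deviated from their group means with correlations of 0.0194, -0.0303 and -0.0445 over 11683 genes. Correlations this weak cannot settle the pairing with 3 libraries per group. The replicate block called 1153 genes higher and 7221 lower, with 0 and 3 of the 8, and among the named genes it changed the calls of Irf1 and Rfxank. Depth could not be set against any of these, as TPM does not hold it.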
